A study of Homo sapiens with 19 samples.

Results

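The 40 genes described here encode enzymes, membrane proteins and regulators of the lysosome and were picked by gene symbol. All 40 had a row in each of the 3 deposited tables, which list 19021, 26955 and 28870 genes and share 17886. They comprise 10 proteases, 10 glycosidases, 5 sulfatases, 6 genes of lipid handling, 5 membrane proteins, 2 subunits of the proton pump and 2 regulators. RNA came from MDA-MB-231, an established triple-negative human breast cancer line, in 19 libraries. The culture table compares adherent cells, grown in DMEM with FCS (n = 2), with spheres at 16 h (n = 2) and 5 d (n = 2), which were kept on nonadherent plates in DMEM/F12 supplemented with EGF, FGF and B27. The siSCIRT table holds cells reverse transfected with siSCIRT 1, siSCIRT 2 or the control siRNA siNC (n = 3 each), and the siEZH2 table holds cells given siEZH2 or its own siNC (n = 2 each). All transfected cells then spent 48 h in sphere medium, and no transfected group was grown adherent. SCIRT is a long noncoding RNA, and EZH2 is the histone methyltransferase of Polycomb repressive complex 2. The comparisons ask how sphere culture and the loss of each target go with the RNA of this line. In the culture comparisons a change of medium, loss of serum, added growth factors and loss of attachment come together and cannot be told apart.

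Lysosomes are acidic organelles in which hydrolases break down proteins, sugar chains, sulfated glycans and lipids delivered by endocytosis and autophagy. Their limiting membrane carries heavily glycosylated proteins such as LAMP1 and LAMP2, ion channels, and a proton pump, the V-ATPase, that keeps the lumen acid. Many of these genes share a palindromic promoter element, called CLEAR, bound by TFEB and its relatives TFE3 and MITF, which enter the nucleus when the kinase mTORC1 is inactive. Cathepsins secreted by breast cancer cells are known for degrading matrix.

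Promoters are shown because members that carry the same element moved in different directions below. RefSeq (GRCh38.p14) gave a promoter of 250 bases before to 50 bases after the start for 29 of the 40 members. The full CLEAR palindrome, TCACGTGA with a G before it and a C after it, searched on both strands, was present in 3 of the 29 (10.3%) against 0.353% of 35116 promoters. TCACGTGA alone, which includes the former, was present in 6 of 29 (20.7%) against 0.98%, and CACGTG, inside both, in 10 of 29 (34.5%) against 7.26%. A match is a stretch of letters and no measured binding site. The windows below hold the longest match in capitals, 5′ to 3′ on the gene's own strand.

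GAA (chr17:80101487-80101573, plus strand): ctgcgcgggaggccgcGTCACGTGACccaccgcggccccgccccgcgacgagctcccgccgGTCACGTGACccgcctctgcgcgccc
GALNS (chr16:88857098-88857139, minus strand): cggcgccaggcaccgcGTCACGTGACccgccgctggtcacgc
MCOLN1 (chr19:7522592-7522623, plus strand): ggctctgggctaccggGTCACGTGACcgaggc
CTSA (chr20:45891293-45891332, plus strand): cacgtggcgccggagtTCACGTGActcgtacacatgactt
LAMP1 (chr13:113297194-113297233, plus strand): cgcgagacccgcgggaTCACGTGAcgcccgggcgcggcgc
ATP6V0D1 (chr16:67481194-67481233, minus strand): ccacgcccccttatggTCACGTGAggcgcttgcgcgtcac

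GAA, the acid alpha-glucosidase that degrades glycogen, holds 2 copies, with centres 73 and 28 bases upstream of its start site. Single copies lie 171 bases upstream of the start of GALNS and 11 bases upstream of that of MCOLN1. Between adherent cells and 16 h spheres, GAA rose by 2.14 ± 0.08 and GALNS by 0.35 ± 0.13 on the log2 scale, whereas MCOLN1 fell (-0.72 ± 0.11). The 3 genes with only the shorter element all fell, with CTSA at -0.10 ± 0.04, LAMP1 at -0.21 ± 0.04 and ATP6V0D1 at -0.92 ± 0.07. DESeq2 called neither the rise of GALNS nor the fall of CTSA, and after scaling to library totals the rise of GALNS was not called.

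Values are normalized counts, that is reads per gene divided by the size factor of the library. Log2 fold changes come from limma on log2(normalized count + 1), with the standard error of the fit after the sign ±, and a gene is said to rise, fall or change only at an adjusted p below 0.05 over all genes tested. Library totals ran from 6104222 to 14781941 reads in the culture table, 38635418 to 62218847 in the siSCIRT table and 27989577 to 38955312 in the siEZH2 table. Nothing in the labels tells whether libraries of a group came from different cultures, and a p-value here covers the spread among libraries alone, which may be technical. The siRNA columns that do not name siSCIRT 2 were taken as siSCIRT 1 by elimination, and the sources used here do not say what their own digits stand for. SCIRT (RP5-1120P11.1) was at 268.9 ± 16.1 normalized counts in controls, 119.7 ± 7.63 after siSCIRT 1 and 127 ± 28.6 after siSCIRT 2 (SD over 3 libraries), or -1.16 ± 0.16 and -1.10 ± 0.16. EZH2 went from 524 ± 7.89 to 276 ± 1.89 with siEZH2 (SD, n = 2 each), or -0.92 ± 0.15. The line's own markers VIM, CD44 and KRT18 were abundant, at 31849.8 ± 428, 4973 ± 9.05 and 2929.5 ± 48.9 in adherent cells (SD, n = 2), while the estrogen receptor ESR1 had 0 to 3 reads per culture group. PGR, CDH1 and EPCAM were also held to be low in this line. Of all 7 line markers 4 passed the filter on low values in the culture table, so PGR, CDH1 and EPCAM were not all below it. Because cathepsins are also abundant in macrophages, 9 macrophage and blood cell markers were read. Of the 9, 4 were listed in the culture table, with a summed CPM of 3.38 to 4.59 in adherent libraries, 4.46 to 6.24 at 16 h and 7.79 to 9.99 at 5 d. The leukocyte marker PTPRC had 36, 0 and 8 reads in the adherent, 16 h and 5 d groups, CD14 41, 59 and 34, and CSF1R 27, 39 and 87, and their part in the culture results was not tested. These reads are not scaled to library depth. Of 2 markers that passed the filter, 2 were called higher at 16 h than in adherent cells and 1 at 5 d (27.4% and 26.3% of all genes).

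Per kb of exon (GENCODE exon union), the lysosomal RNAs differed widely in level. In adherent cells the most abundant was PSAP, the precursor of the saposins that present lipids to hydrolases, at 4280.5 ± 23.5 normalized counts per kb (SD, n = 2), followed by the aspartic protease CTSD at 3769.5 ± 32.3. CD63, a tetraspanin of late endosomes, CTSZ, a carboxypeptidase, GRN, the progranulin precursor, and NPC2, a cholesterol carrier, came next at 2231 ± 17.3, 1925 ± 64.7, 1237 ± 22.2 and 1192 ± 7.86 per kb. Neighbours in this order of 6 did not overlap between libraries, while CTSA and LAMP1, next below, did. TFEB, CTSK and ARSA were the lowest, at 7.42, 6.39 and 3.52 per kb. At 16 h the same 6 genes led, and at 5 d CTSD (3967 ± 55.7) stood above PSAP (2673 ± 51.2). PSAP and CTSD also held the first and second rank in all 5 siRNA groups, with PSAP at 42357 ± 2215 and CTSD at 29362 ± 2646 per kb in siNC of the siSCIRT table (SD, n = 3).

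At 16 h the lysosomal genes split evenly between rises and falls. Against adherent cells 17 of the 40 rose and 17 fell, where 53.9% of all 13789 genes tested were called (27.4% higher, 26.5% lower). Libraries of the compared groups did not overlap for 38 members (77% of all genes), for 35 at 5 d (77.7%) and for 36 between 16 h and 5 d (71%). All 40 passed the filter on low values in each table. The median log2 fold change of the members was 0.13, against -0.01 for all genes, but it was -0.16 with quantile normalization, which gave 13 rises and 20 falls. Of all 13789 genes 3461 rose and 3854 fell under that scaling. Scaling to library totals gave a median of -0.12 with 8 rises and 19 falls, where 2300 of 13791 genes rose and 5951 fell. The median of all genes shifted to -0.26, so that the members lay 0.13 above all genes. By 5 d the balance lay with falls, 24 against 6 rises of 40, where 55.2% of all genes were called (26.3% higher, 28.9% lower), and the members' median was -0.44 against -0.02. From 16 h to 5 d 26 fell and 6 rose, where 48.3% were called (22.8% higher, 25.5% lower), with a median of -0.39 against 0.00. On library totals that last split was 20 falls and 9 rises, where 2136 of 13791 genes fell and 5142 rose, and the median of all genes was 0.20.

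A pair of courses recurred among the members. The first was a rise at 16 h followed by a lower level at 5 d than at 16 h, seen in 16 of 40 members (13.4% of all genes), but in 11 with quantile normalization and 8 on library totals. The second was a fall by 16 h and a further fall by 5 d, seen in 8 of 40 (3.17% of all genes), 10 and 6 under those scalings. In 15 of 40 the level was lower than in adherent cells at both times (16.4% of all genes), and in 3 it was higher at both (16.9%), although for 1 of these 3, CTSD, quantile normalization turned both values negative and on library totals 0 members were called higher at both. A further 7 were above adherent cells at 16 h and below them at 5 d (2.89% of all genes), though PSAP, CD63 and SCARB2 among them turned negative at 16 h on library totals and PSAP and CD63 also with quantile normalization. The count of members on this course was 4 with quantile normalization and 3 on library totals. CTSZ alone went the other way, lower at 16 h and higher at 5 d (1.52% of all genes). The shares of all genes on these courses are those of the main fit only, so the counts under other scalings have no such share beside them.

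**Figure D1:**
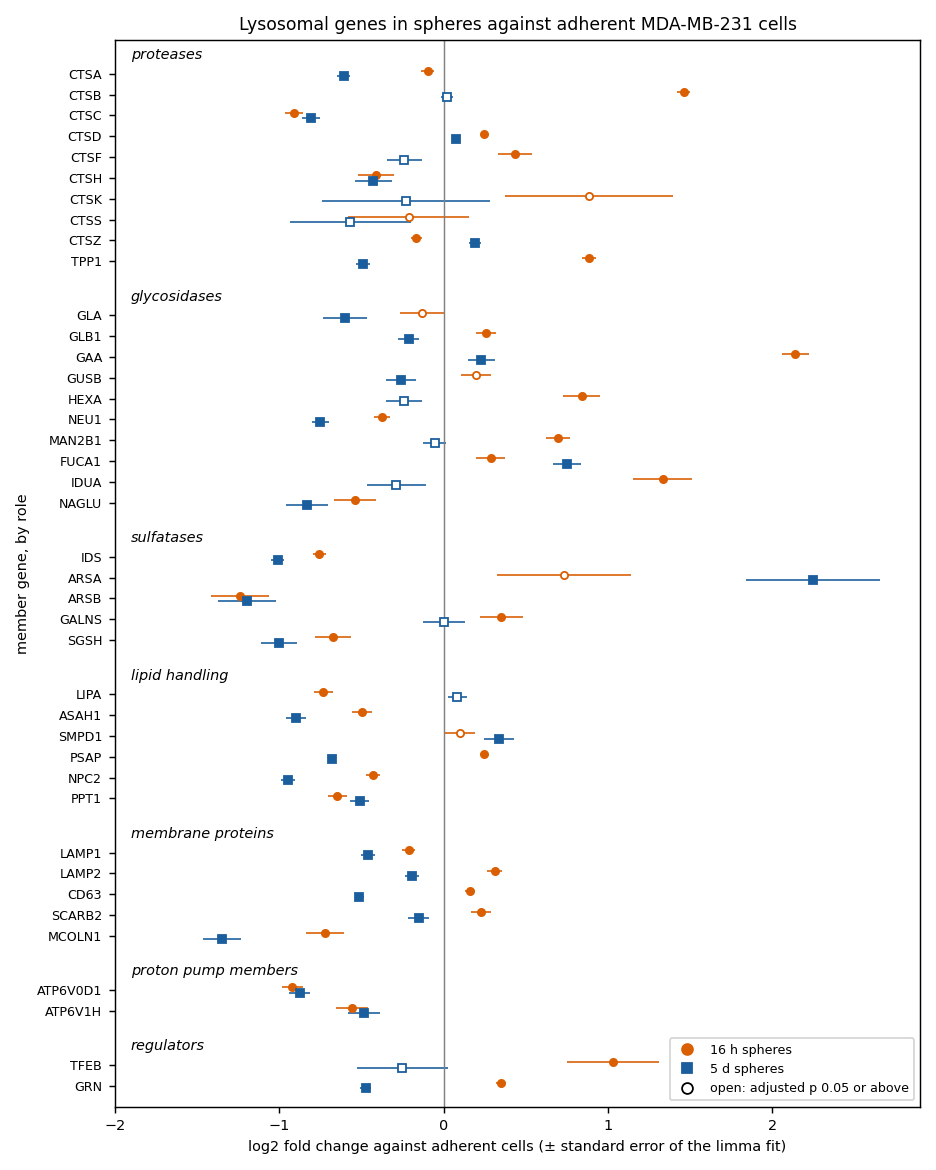
Log2 fold change of each of the 40 lysosomal genes in 16 h spheres (circles) and 5 d spheres (squares) against adherent cells, grouped by role, with the standard error of the limma fit as bars and open symbols where the adjusted p was 0.05 or above. At 16 h 17 genes lay significantly right of 0 and 17 left, and at 5 d 6 right and 24 left; the rises of CTSD, CD63, PSAP and SCARB2 at 16 h, and that of CTSD at 5 d, turned negative under another scaling.

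Among the 10 proteases, 4 rose and 4 fell at 16 h, and 2 rose and 4 fell at 5 d against adherent cells. CTSB, a cysteine cathepsin that degrades matrix when secreted, held 2260.0 and 2254 normalized counts in adherent cells, 6109.6 and 6315 at 16 h and 2233 and 2349 at 5 d. The 16 h libraries stood above all others, and the adherent and 5 d libraries overlapped. CTSB rose by 1.46 ± 0.04 (adjusted p = 1.1e-28) and fell back between 16 h and 5 d (-1.44 ± 0.04, adjusted p = 3.0e-28). TPP1, which removes tripeptides from protein ends, went from 2002 and 2060.3 to 3792 and 3715 and then to 1458 and 1437. No libraries of different groups overlapped, and the changes against adherent cells were 0.89 ± 0.04 (adjusted p = 7.7e-20) at 16 h and -0.49 ± 0.04 (adjusted p = 3.4e-12) at 5 d. CTSF rose to a smaller extent at 16 h (0.43 ± 0.11, not called on library totals) and was not called at 5 d. CTSD, at 11712 and 11855 in adherent cells, 14009.8 and 13945 at 16 h and 12277 and 12523 at 5 d, gave 0.25 ± 0.02 at 16 h, but -0.39 with quantile normalization and -0.01 on library totals.

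CTSC, which activates granule serine proteases, and CTSH were below adherent cells at both times, with CTSC falling by 0.91 ± 0.05 and 0.81 ± 0.05, CTSH falling by 0.41 ± 0.11 and 0.43 ± 0.11 on the log2 scale. CTSA, the protective protein that holds NEU1 and GLB1 in a complex, fell slightly by 16 h (-0.10 ± 0.04, not called by DESeq2) and further by 5 d (-0.61 ± 0.04). CTSZ held 4016 and 3829.5 in adherent cells, 3407 and 3583 at 16 h and 4469 and 4478 at 5 d, with no overlap between groups and changes of -0.17 ± 0.03 and 0.19 ± 0.03. CTSK and CTSS, typical of osteoclasts and antigen-presenting cells, had at most 35.4 normalized counts in any culture library and were not called.

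Of the 10 glycosidases 6 rose and 2 fell at 16 h, or 4 and 3 on library totals, and 8 fell and 1 rose from 16 h to 5 d, or 7 and 1. GAA showed the largest rise of the 40 members at 16 h. It held 349 and 332 in adherent cells, 1538 and 1469 at 16 h and 405 and 394 at 5 d, without overlap between groups. The change was 2.14 ± 0.08 at 16 h (adjusted p = 4.2e-23), and 0.23 ± 0.08 remained at 5 d (adjusted p = 0.017). The rise of GAA at 5 d was not called by DESeq2 or on library totals. IDUA, which removes iduronic acid from dermatan and heparan sulfate, went from 98.1 and 100.5 to 254 and 249 and to 80.7 and 81.7. Again only the 16 h libraries were high, by 1.33 ± 0.18 (adjusted p = 5.4e-08), and 5 d spheres had fallen by 1.62 ± 0.18 since 16 h.

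HEXA, the alpha chain of the hexosaminidase that degrades gangliosides, followed the same course, with 272 and 316, then 528 and 524, then 243 and 253. Its changes were 0.84 ± 0.11 at 16 h (adjusted p = 3.6e-08) and -1.08 ± 0.11 from 16 h to 5 d (adjusted p = 1.9e-10). MAN2B1, an alpha-mannosidase, rose by 0.70 ± 0.07 at 16 h and GLB1, the beta-galactosidase behind senescence staining, by 0.26 ± 0.06, the latter at 0.01 and not called on library totals. GLB1 held 1042 and 1059, 1289.7 and 1225 and 882 and 932 in adherent, 16 h and 5 d libraries, all groups apart, and was below adherent cells at 5 d (-0.21 ± 0.06). FUCA1, an alpha-fucosidase, was the only glycosidase called higher at 16 h and higher again at 5 d, by 0.29 ± 0.09 (0.03 and not called on library totals) and then 0.75 ± 0.09 against adherent cells. The sialidase NEU1 and NAGLU, an enzyme of heparan sulfate breakdown, fell at 16 h (-0.38 ± 0.05 and -0.54 ± 0.13) and were lower at 5 d than in adherent cells (-0.75 ± 0.05 and -0.83 ± 0.13). GLA and GUSB were not called at 16 h and fell by 5 d (-0.60 ± 0.13 and -0.26 ± 0.09).

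Sulfatases, which strip sulfate groups from glycans and sulfolipids, gave 3 falls and 1 rise of 5 in 16 h spheres and again at 5 d. IDS, which acts on iduronic acid sulfate, held 4129 and 4149 in adherent cells, 2469.6 and 2428 at 16 h and 2034 and 2079.8 at 5 d. Each step was downward without overlap, with changes against adherent cells of -0.76 ± 0.04 at 16 h and -1.01 ± 0.04 at 5 d (adjusted p = 8.3e-23). The fall of IDS from 16 h to 5 d was not called on library totals. SGSH, the heparan sulfamidase, went from 506 and 517 to 314 and 326 and 242 and 268. Its groups were apart as well, at -0.67 ± 0.11 and -1.0 ± 0.11 (adjusted p = 4.1e-10). The fall of SGSH from 16 h to 5 d was not called by DESeq2 or on library totals.

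ARSB, which acts on dermatan sulfate, fell from 241 and 231 to 93.8 and 105 at 16 h and stood at 101 and 103 at 5 d. The sphere groups overlapped each other and stood below adherent cells, at -1.24 ± 0.18 (adjusted p = 1.5e-07) and -1.20 ± 0.18 (adjusted p = 3.4e-07). ARSA, the arylsulfatase that degrades sulfatide, was barely counted in adherent cells, at 9.06 and 11.6, with 16.0 and 19.5 at 16 h and 53.8 and 50.8 at 5 d. It was the largest rise among the members at 5 d (2.25 ± 0.41, adjusted p = 1.3e-05) and was not called at 16 h. GALNS, a sulfatase of keratan sulfate, rose at 16 h (0.35 ± 0.13) and was at 0.00 ± 0.13 at 5 d, not called. Its rise at 16 h was not called by DESeq2 or on library totals.

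**Figure D2:**
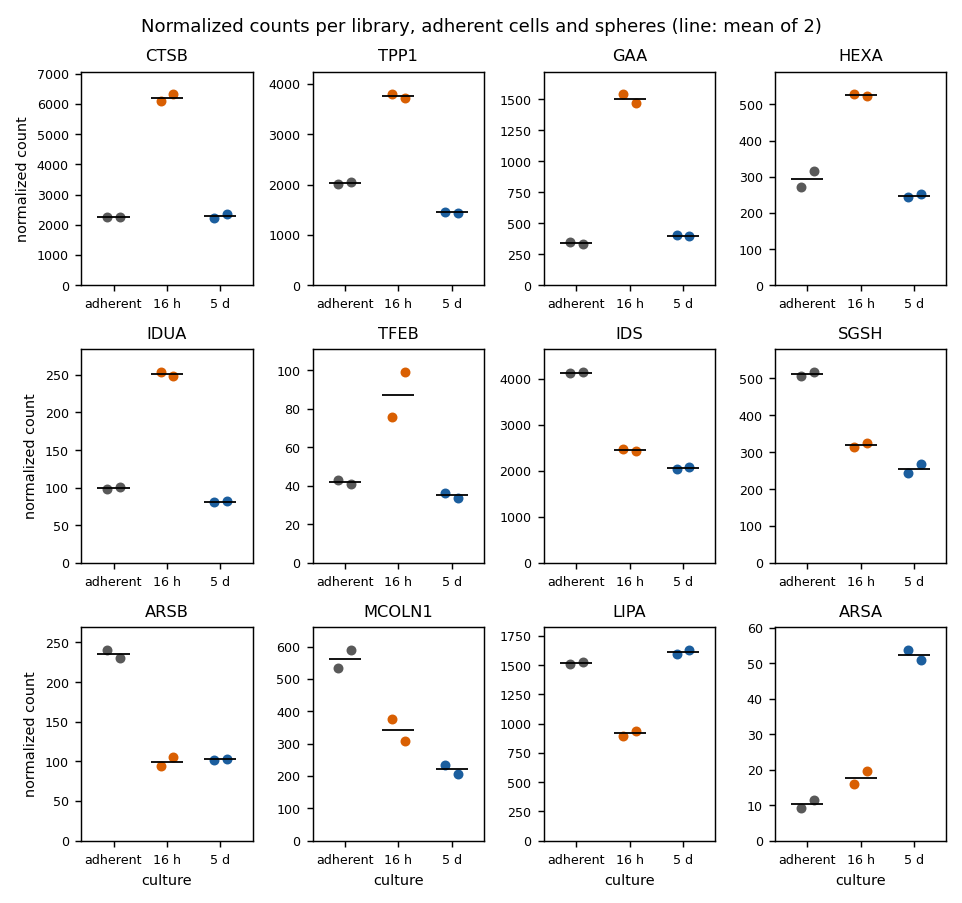
Normalized counts of 12 lysosomal genes in each culture library, 2 adherent, 2 at 16 h and 2 at 5 d, each panel on its own axis from 0, with a line at the mean. CTSB, TPP1, GAA, HEXA, IDUA and TFEB peak at 16 h. IDS, SGSH and MCOLN1 step down at each time. On library totals the fall of IDS and SGSH from 16 h to 5 d was not called. ARSB is low in all 4 sphere libraries, LIPA is low at 16 h only and ARSA is highest at 5 d.

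Of the 6 genes of lipid handling, 4 fell and 1 rose at 16 h, and the same numbers fell and rose at 5 d. LIPA, the acid lipase that frees cholesterol and fatty acids from lipoprotein esters, was low at 16 h, with 1512 and 1530.0 in adherent cells, 896 and 936 at 16 h and 1592 and 1631 at 5 d. The fall was -0.73 ± 0.06 (adjusted p = 4.6e-14), and the later rise from 16 h to 5 d was 0.81 ± 0.06 (adjusted p = 4.0e-15), while 5 d and adherent cells were not called different. ASAH1, acid ceramidase, and NPC2 fell stepwise, to -0.90 ± 0.06 and -0.95 ± 0.04 at 5 d against adherent cells. PPT1, which removes palmitate from proteins, was lower at both times (-0.65 ± 0.06 and -0.51 ± 0.06). SMPD1, acid sphingomyelinase, was called only at 5 d (0.33 ± 0.09). PSAP, the most abundant of the group, held 13811 and 13918 in adherent cells, 16332 and 16555 at 16 h and 8539 and 8774 at 5 d. Its groups did not overlap, and the values were 0.25 ± 0.02 at 16 h, turning to -0.36 with quantile normalization and -0.01 on library totals, and -0.68 ± 0.02 at 5 d.

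All 5 membrane proteins were lower at 5 d than in adherent cells, after 3 rises and 2 falls at 16 h. SCARB2 at 5 d (adjusted p = 0.043 by limma) was not called by edgeR (adjusted p = 0.065) or DESeq2 (adjusted p = 0.17). At 16 h quantile normalization gave 1 rise and 3 falls, and scaling to library totals 0 rises and 3 falls. MCOLN1, the calcium channel TRPML1, held 535 and 590.0, then 375 and 309, then 235 and 206. Groups were apart, and the fall at 5 d was -1.35 ± 0.11 (adjusted p = 9.8e-13), the largest of any member against adherent cells in that fit. LAMP2, whose A isoform is the receptor of chaperone-mediated autophagy, held 2321 and 2250.2, 2886 and 2779.7 and 1975 and 2021 in adherent, 16 h and 5 d libraries, rising by 0.31 ± 0.04 (not called at 0.10 with quantile normalization and 0.06 on library totals) and ending at -0.19 ± 0.04. LAMP1 fell at both times, -0.21 ± 0.04 and -0.46 ± 0.04. CD63 held 5905 and 5841, 6461 and 6667 and 4048 and 4187, at 0.16 ± 0.03 for 16 h (-0.17 with quantile normalization, -0.09 on library totals) and -0.51 ± 0.03 for 5 d. SCARB2, the receptor that carries glucocerebrosidase to lysosomes, held 998 and 1017, 1143 and 1218 and 926 and 889, at 0.23 ± 0.06 for 16 h (-0.03 on library totals) and -0.15 ± 0.06 for 5 d. For both genes the 3 groups were apart.

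Both proton pump members were lower in spheres. ATP6V0D1, of the membrane sector, held 1760.5 and 1721 in adherent cells, 862 and 979.5 at 16 h and 902 and 997 at 5 d, with the sphere groups overlapping each other and changes of -0.92 ± 0.07 and -0.88 ± 0.07. ATP6V1H, a regulatory subunit of the catalytic sector, was at -0.56 ± 0.10 and -0.48 ± 0.10.

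The regulators rose at 16 h. TFEB, the transcription factor named above, held 43.0 and 40.8 normalized counts in adherent cells, 75.7 and 98.9 at 16 h and 36.2 and 33.9 at 5 d, with no overlap between groups. It rose by 1.03 ± 0.28 (adjusted p = 0.0019) and fell by 1.28 ± 0.28 from 16 h to 5 d (adjusted p = 0.00023). GRN, whose product is cut into granulins in the lysosome, held 4611 and 4496, 5808 and 5790.3 and 3243 and 3308. Its groups were apart too: it rose by 0.35 ± 0.03 at 16 h and had fallen by 0.48 ± 0.03 at 5 d, both against adherent cells.

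The summed normalized count of the 40 members was 80381 and 79855 in adherent cells, 87101 and 87948 at 16 h and 60870.1 and 62628 at 5 d. As a share of all reads the members took 0.887% to 0.889% in adherent libraries, 0.811% to 0.818% at 16 h and 0.655% to 0.666% at 5 d. The sum was highest at 16 h on the authors' size factors, while the share of reads was highest in adherent cells. Mitochondrial transcripts took 6.83% to 6.89%, 8.55% to 8.56% and 9.65% to 9.74% of reads in the same groups, and their part in these results was not tested. In such bulk RNA, fewer cells with a transcript and less of it per cell cannot be told apart.

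The rest of the pathway was read from lists of genes that are no members. Of all genes 27.4% were higher and 26.5% lower at 16 h, and 26.3% and 28.9% at 5 d. These shares and the list counts are those of the main fit. On library totals 2300 of 13791 genes rose and 5951 fell at 16 h. Of 18 other proton pump subunits tested, 11 fell and 2 rose at 16 h, and 14 fell and 0 rose at 5 d. The osteoclast-type subunit ATP6V0D2 fell the most of this list at both times, with changes of -2.99 ± 0.19 and -2.29 ± 0.19, from 431 ± 13.7 normalized counts in adherent cells to 54.0 ± 12.5 and 87.7 ± 6.32 (SD, n = 2 each). ATP6V0B reached -1.33 ± 0.09 at 5 d, and the accessory subunit ATP6AP2 was at 0.52 ± 0.06 at 16 h. Among 22 other membrane proteins and transporters 12 fell and 4 rose at 16 h, and 12 fell and 2 rose at 5 d. The chloride-proton exchanger CLCN7 (-1.29 ± 0.09 and -1.48 ± 0.09), the cystine exporter CTNS (-1.46 ± 0.14 and -1.65 ± 0.14) and the cholesterol transporter NPC1 (-0.28 ± 0.04 and -0.50 ± 0.04) were lower at both times. LAPTM5, a lysosomal protein best known in blood cells, went from 315 ± 5.32 to 1916 ± 30.7 and 1237 ± 46.3, a rise of 2.60 ± 0.07 at 16 h.

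Other hydrolases and cofactors were more mixed, with 9 rises and 6 falls of 26 at 16 h and 8 rises and 6 falls at 5 d. This list, here and below, also holds TPCN1, a lysosomal channel. The shares of all genes were 27.4% higher and 26.5% lower at 16 h, and 26.3% and 28.9% at 5 d. CTSL, a cysteine cathepsin close to CTSB in function, rose by 1.68 ± 0.04 and 0.75 ± 0.04 at 16 h and 5 d and so peaked at 16 h. Of 17 genes that sort enzymes to the lysosome 4 rose and 5 fell at 16 h, and 4 rose and 9 fell at 5 d. The mannose 6-phosphate receptor M6PR was lower at both times (-0.74 ± 0.07 and -0.73 ± 0.07), and the alternative receptor SORT1 was higher (0.52 ± 0.05 and 0.63 ± 0.05). Of 19 genes of TFEB control and nutrient sensing 6 rose and 4 fell at 16 h, and 6 rose and 9 fell at 5 d. MITF fell by 2.04 ± 0.13 at 16 h, while TFEB rose, and RRAGC, a GTPase that brings mTORC1 to the lysosome, was at -1.10 ± 0.07 at 5 d. Of 6 inhibitors of cysteine cathepsins 1 rose and 3 fell at 16 h, and 3 rose and 2 fell at 5 d. The rise at 16 h was that of CST3, cystatin C, at 1.59 ± 0.03.

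With SCIRT knocked down, lysosomal genes changed by small amounts. With siSCIRT 1 6 of the 40 members rose and 3 fell, where 10.2% of all 16607 genes tested were called (4.63% higher, 5.56% lower). With siSCIRT 2 5 rose and 2 fell, where 9.54% were called (4.49% higher, 5.05% lower). The medians were 0.00 and 0.04, against 0.01 and 0.01 for all genes, and no member was called at 2-fold or more (0.47% and 0.367% of all genes). With quantile normalization siSCIRT 1 gave 10 rises and 3 falls (786 and 903 of 16607 genes), and on library totals siSCIRT 2 gave 6 rises and 1 fall (820 and 682 of 16609 genes). In a fit of siNC and siSCIRT 2 alone with the replicate number as a block, 11 rose and 3 fell, where 16% of all genes were called. The mean of both siRNAs against siNC gave 10 rises and 3 falls, where 14.4% were called (6.82% higher, 7.58% lower). Groups did not overlap for 20 members with siSCIRT 1 (28.1% of all genes), 17 with siSCIRT 2 (26.5%) and 14 for all knockdown libraries against siNC (18.1%). These comparisons share their siNC libraries. Between siSCIRT 1 and siSCIRT 2 limma called 0 members (0% of all genes), 4 had an unadjusted p under 0.05, and edgeR and DESeq2 called 0 members too. The differences between the siRNAs ran from -0.23 to 0.25, and the groups of 4 members did not overlap (7.34% of all genes).

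The members with the smallest adjusted p were 2 sulfatases, CTSA, PPT1 and TFEB. For GALNS the control libraries gave 1791, 1651 and 1538 normalized counts, those of siSCIRT 1 2081, 2102 and 2066, and those of siSCIRT 2 2129.7, 2147 and 2185. Every knockdown library stood above every control, by 0.33 ± 0.07 (adjusted p = 0.007) and 0.38 ± 0.07 (adjusted p = 0.003). SGSH went from 2091, 2182 and 1969 with siNC to 2462, 2672 and 2498 and 2598, 2482 and 2761. It too was higher in all 6 knockdown libraries, by 0.29 ± 0.07 and 0.33 ± 0.07 (adjusted p = 0.016 and 0.0079). CTSA was at 14990.0, 14121 and 14922 in controls, 18072, 17451 and 16830.3 after siSCIRT 1 and 18176, 17074 and 16963 after siSCIRT 2. No knockdown library overlapped the controls, and both siRNAs gave 0.25 ± 0.06 (adjusted p = 0.017 and 0.02).

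TFEB held 269.9, 261 and 236 in the controls, 373, 353 and 329.5 after siSCIRT 1 and 412, 354 and 317 after siSCIRT 2. All knockdown libraries were above the controls, at 0.46 ± 0.12 (adjusted p = 0.025) and 0.49 ± 0.12 (adjusted p = 0.02). CTSD rose as well, from 97935, 95040.3 and 82382 to 119038, 114969 and 108696 and 123764, 107950.0 and 106400.0, by 0.32 ± 0.08 and 0.30 ± 0.08. With siSCIRT 1 the call of CTSD was lost without siNC replicate 3 or the first or second siSCIRT 1 column (adjusted p = 0.13, 0.051 and 0.084). With siSCIRT 2 it was lost without siNC replicate 3 (adjusted p = 0.17) or any 1 siSCIRT 2 library (adjusted p = 0.13, 0.058 and 0.057). PPT1 fell with both siRNAs, with 7934, 6790.0 and 8231 in controls, 6162, 6041 and 5712 after siSCIRT 1 and 5475, 6056 and 5641 after siSCIRT 2. No library overlapped the controls, and the changes were -0.35 ± 0.08 (adjusted p = 0.0071) and -0.42 ± 0.08 (adjusted p = 0.0025).

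Single-siRNA calls were a rise of CTSB (0.27 ± 0.08) and falls of CTSS (-0.26 ± 0.08) and NEU1 (-0.29 ± 0.08) with siSCIRT 1, and a fall of ASAH1 (-0.23 ± 0.07) with siSCIRT 2. No difference between the siRNAs was called for these genes. GRN stood at 51628, 42912 and 44871 in controls, 54588, 51452 and 48363 after siSCIRT 1 and 54544, 46077 and 49066 after siSCIRT 2, with overlapping groups, and was not called. Among glycosidases 1 of 10, NEU1, was called with siSCIRT 1 and 0 with siSCIRT 2, and no membrane protein or pump member was called with either. Without siNC replicate 3 the called members numbered 3 with siSCIRT 1 and 2 with siSCIRT 2, and without the second siSCIRT 1 column 2 with siSCIRT 1. TFEB was not called with siSCIRT 2 without siNC replicate 3 (adjusted p = 0.097) or without siSCIRT 2 replicate 1 (adjusted p = 0.092). With siSCIRT 1 TFEB was not called without siNC replicate 3 or the first or second siSCIRT 1 column (adjusted p = 0.12, 0.071 and 0.084). Likewise SGSH was not called with siSCIRT 1 without siNC replicate 3 (adjusted p = 0.087) or the second siSCIRT 1 column (adjusted p = 0.091), nor with siSCIRT 2 without siNC replicate 3 (adjusted p = 0.052) or siSCIRT 2 replicate 3 (adjusted p = 0.0503), and CTSA was not called with siSCIRT 1 without the second siSCIRT 1 column (adjusted p = 0.070). With siSCIRT 2 CTSA was not called without siNC replicate 1 or 3 or siSCIRT 2 replicate 1 (adjusted p = 0.053, 0.057 and 0.076). CTSB, CTSS and NEU1 with siSCIRT 1 and ASAH1 with siSCIRT 2 were not called without siNC replicate 3 (adjusted p = 0.17, 0.059, 0.091 and 0.17). CTSS, NEU1 and ASAH1 were not called without siNC replicate 1 either (adjusted p = 0.15, 0.16 and 0.12). The same held for CTSB and CTSS without siNC replicate 2 (adjusted p = 0.080 and 0.071). Each of these genes also lost its call without some of the knockdown libraries.

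**Figure D3:**
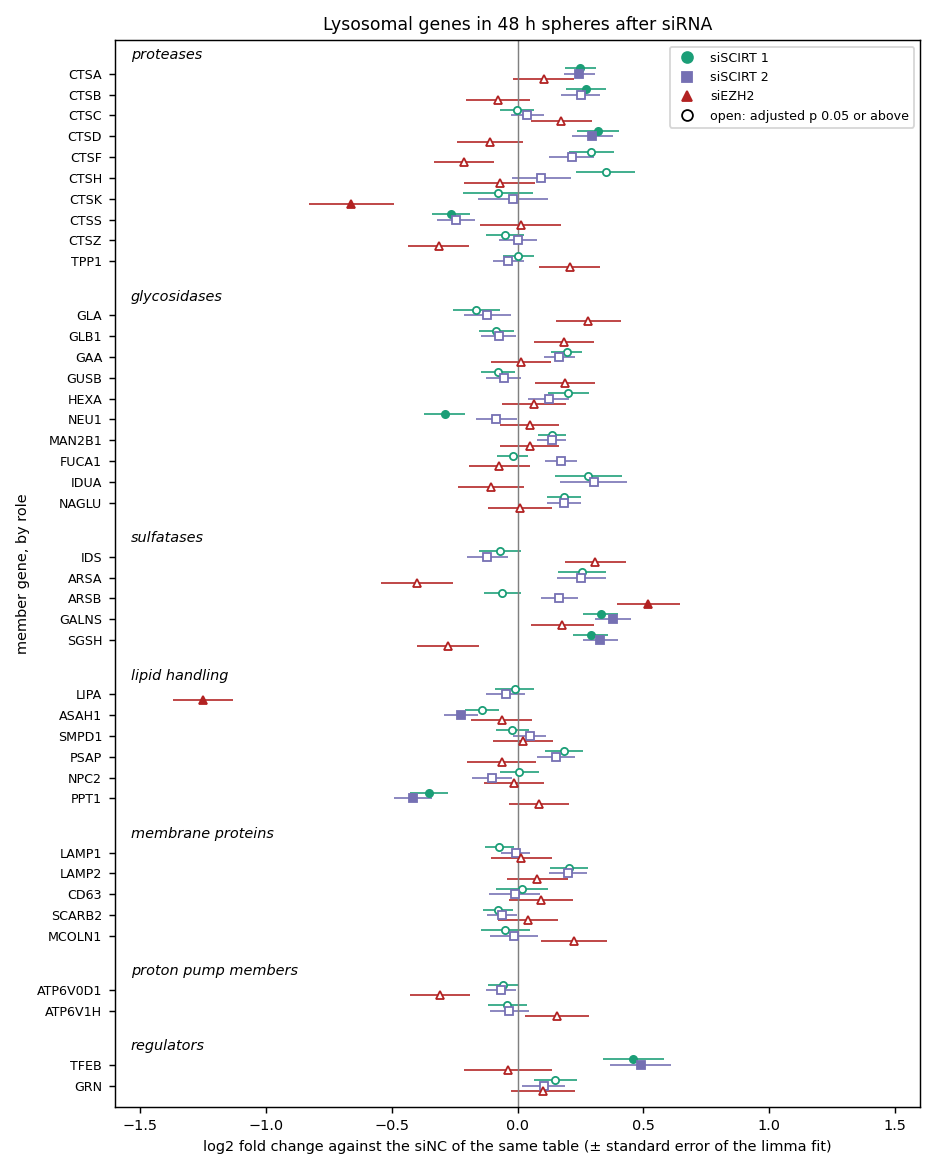
Log2 fold change of each of the 40 lysosomal genes in 48 h spheres with siSCIRT 1 (circles), siSCIRT 2 (squares) and siEZH2 (triangles), each against the siNC of its own table, with the standard error of the limma fit as bars and open symbols where the adjusted p was 0.05 or above. LIPA with siEZH2 lies far left at -1.25, and the called siSCIRT values lie between -0.42 and 0.49.

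**Figure D4:**
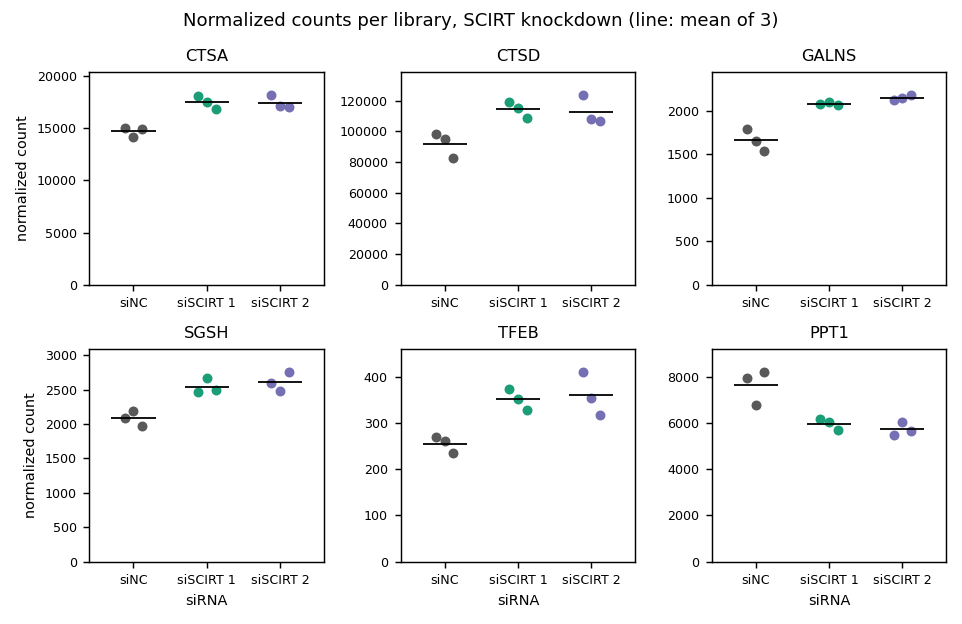
Normalized counts of 6 lysosomal genes in each library of the siSCIRT table, 3 per siRNA, on axes from 0 with a line at the mean. CTSA, CTSD, GALNS, SGSH and TFEB are higher in all 6 knockdown libraries than in the 3 siNC libraries, and PPT1 is lower.

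Of the pathway lists, genes of TFEB control and nutrient sensing gave 6 rises and 2 falls of 19 with siSCIRT 1 and 4 rises and 2 falls with siSCIRT 2. For this and the other lists, 4.63% of all genes were higher and 5.56% lower with siSCIRT 1. With siSCIRT 2 these shares were 4.49% and 5.05%. MITF, chosen like LAPTM5 for its values here after they were seen, fell with both (-0.34 ± 0.10 and -0.39 ± 0.10), opposite to TFEB. LAPTM5 fell by 0.37 ± 0.07 and 0.26 ± 0.07. Other hydrolases gave 3 rises and 2 falls of 30 with siSCIRT 1 and 3 rises and 1 fall with siSCIRT 2, other membrane proteins 0 rises with 1 and 2 falls of 24, and other pump subunits 0 rises with 1 and 2 falls of 18. None of 17 sorting genes was called with either siRNA in this fit. The members took 0.983% to 1.05% of reads with siNC, 1.10% to 1.16% with siSCIRT 1 and 1.09% to 1.18% with siSCIRT 2. Of the macrophage and blood markers 7 of 9 were listed, at a summed CPM of 22.8 to 26.6 with siNC, 26.4 to 27.7 with siSCIRT 1 and 25.3 to 27.0 with siSCIRT 2, with PTPRC at 25, 45 and 25 reads, and their part in the result was not tested. Most of their summed reads, 1482, 1305 and 1653 in the siNC libraries, thus lay in markers other than PTPRC. Of 4 tested, 1 was called higher with siSCIRT 1 (4.63% of all genes) and 0 with siSCIRT 2.

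With EZH2 knocked down, 1 of the 40 members rose and 2 fell, where 6.84% of all 15823 genes tested were called (3.9% higher, 2.94% lower), and groups did not overlap for 18 members (47.9% of all genes). The members' median was 0.02 against 0.01 for all genes. With quantile normalization 1 rose and 4 fell (566 and 506 of 15823 genes), and the median was -0.02. LIPA made the largest change of any member in the siRNA comparisons fitted here, and the only one of at least 2-fold (1.02% of all genes). Its control libraries gave 3622 and 3189.6 normalized counts, and those of siEZH2 1507 and 1352. The groups were far apart, at -1.25 ± 0.12 (adjusted p = 1.4e-21). In the SCIRT knockdowns LIPA was at 5411, 5369.8 and 5538 in controls, 5858, 5348 and 5014 after siSCIRT 1 and 5111, 5891 and 4842 after siSCIRT 2. There the groups overlapped, and the values of -0.01 ± 0.08 and -0.05 ± 0.08 were not called. EZH2 RNA itself was at -0.53 ± 0.08 and -0.50 ± 0.08 in those knockdowns, and the difference in LIPA between the 2 tables, which were fitted separately, was not tested.

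ARSB rose with siEZH2, from 1016 and 1168 to 1541 and 1583, without overlap (0.52 ± 0.12, adjusted p = 0.0014). CTSK, the collagen-degrading cathepsin of osteoclasts, fell from 277 and 228 to 147 and 172 (-0.66 ± 0.17, adjusted p = 0.0034). TFEB, at 185 and 177 in controls and 161 and 193 in siEZH2 libraries, overlapped between groups, and so did GRN at 24656 and 26199.8 against 24704 and 30053. Neither was called (-0.04 ± 0.17 and 0.10 ± 0.13). Without trend in the variance model 0 members were called, with LIPA at an adjusted p of 0.051, while edgeR and DESeq2 called 3. Without siNC replicate 1 only LIPA was called, with ARSB at an adjusted p of 0.23 and CTSK at 0.28. CTSK was also not called without siEZH2 replicate 1 (adjusted p = 0.057), and without siEZH2 replicate 2 7 members were called.

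**Figure D5:**
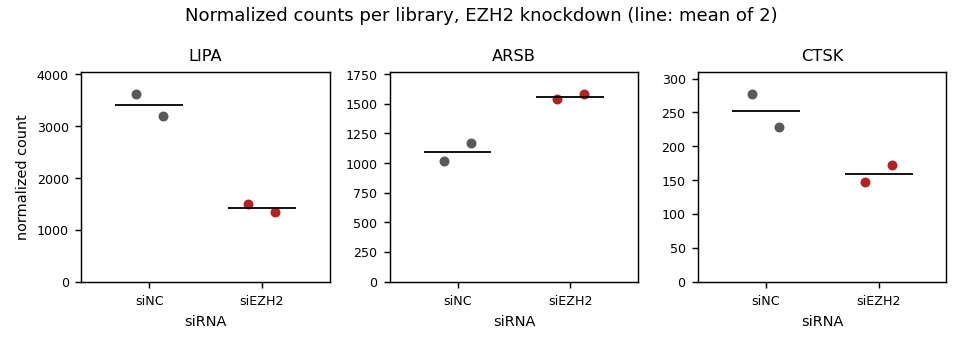
Normalized counts of the 3 members called with siEZH2 in each library, 2 with siNC and 2 with siEZH2, on axes from 0 with a line at the mean. LIPA drops from at least 3189.6 with siNC to at most 1507 with siEZH2, ARSB is higher and CTSK lower in both siEZH2 libraries.

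Pathway genes outside the 40 were read with siEZH2 too, where 3.9% of all genes were higher and 2.94% lower. Other pump subunits gave 1 rise and 1 fall of 20, other hydrolases 1 rise and 3 falls of 30, other membrane proteins 1 rise and 4 falls of 23, sorting genes 0 rises and 2 falls of 17, TFEB control 0 rises and 1 fall of 19, and cathepsin inhibitors 0 rises and 3 falls of 7. Among these, LAPTM4A, a lysosomal membrane protein chosen after its values were seen, went from 10475 ± 293 to 5582 ± 520.4 (SD, n = 2 each; -0.91 ± 0.12, adjusted p = 1.8e-11). The members took 0.946% to 0.991% of reads with siEZH2 and 1.01% to 1.03% with siNC. Of the 9 macrophage and blood markers 8 were listed, at a summed CPM of 12.9 to 14.3 with siEZH2 and 12.9 to 15.9 with siNC, with PTPRC at 12 and 15 reads, and their part in the result was not tested. Of 3 tested, 1 was called higher and 1 lower (3.9% and 2.94% of all genes).

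Some values count reads that may belong to a neighbour, since the kit does not mark strand. Exons of CAP1, an actin regulator on the other strand, cover 23.4% of the exon bases of PPT1, and CAP1 stood above PPT1 in all groups, at a mean of 4686, 5656 and 7813 normalized counts in adherent, 16 h and 5 d cells and of 33075, 28940.3 and 29818 with siNC, siSCIRT 1 and siSCIRT 2. SLC26A1 covers 13.4% of IDUA, at 18.8, 29.1 and 17.5 in the culture groups, and NEURL2 covers 17.7% of CTSA, at 10.5, 7.62 and 3.86. On the same strand, the annotation places a second protein-coding model over 41.7% of the exon bases of CTSD, 16.5% of IDS and 13.1% of MAN2B1, and a processed transcript over 12.6% of NAGLU and 11.6% of TPP1. Antisense transcripts cover 15.8% of CTSD and 10.1% of HEXA. The values of these 9 genes are uncertain, and the shares do not give the size of the error, which also depends on the neighbour's level. In adherent cells CAP1 was at 4686 beside PPT1 at 1692, and NEURL2 at 10.5 beside CTSA at 3257.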

How the data were processed

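RNA was made into libraries with TruSeq RNA v2, per the labels' protocols, which does not mark strand. CASAVA 1.4, TopHat2, Partek and hg19 are named in the submitters' processing notes; the counting program is not given in the sources used here. The culture and siSCIRT tables were deposited as log2 values on a variance-stabilized scale, and the siEZH2 table was deposited as a linear signal, counts divided by size factors. The design had assumed linear values throughout, so the log2 values were first turned back into normalized counts. Dividing by the worth of 1 read gave whole reads for 100% of values in every library, within 0.05 of a read.

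Tests were run within a table, since the tables were normalized separately, with limma 3.58.1 in R 4.3.3 on log2(normalized count + 1) for genes with a mean of at least 10, with a variance trend and robust moderation, two-sided, at a Benjamini-Hochberg adjusted p under 0.05 over all genes tested. The pipeline was tested on simulated data. edgeR 4.0.16 and DESeq2 1.42.0 were run on the whole reads as alternatives, beside pseudocount 8, no filter, quantile normalization, a filter at a mean of 50, no trend, a replicate block, fits of the compared groups alone, and each library left out. Scaling to library totals, a block within the compared groups and a block on the digits of the column names were added after seeing the data. Of 2 rows for IDS the one with the main Ensembl identifier was used.

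The members and lists were chosen with earlier results of these data known. Library values are given for members called at 2-fold or more without overlap and with 50 or more normalized counts on average in whichever group was higher, for up to 4 per siRNA comparison with the smallest adjusted p, for members called in opposite directions at 16 h and 5 d, and for TFEB and GRN. From each other list up to 4 genes with the smallest adjusted p in the culture comparisons may be named. Library values of further members were added after they were seen. Lengths come from GENCODE v29 on GRCh38, not hg19. With 2 or 3 libraries per group, precision rests on the spread pooled across genes.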

Additional observations from a re-analysis of the deposited data

Results flagged for a closer look

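For 8 members the change against adherent cells was called in opposite directions at 16 h and 5 d. The difference between these changes is the change from 16 h to 5 d in the same fit. Its call therefore follows from the selection of these members and adds no support, and only its size is given. The difference was -1.37 for TPP1, -0.93 for PSAP, -0.82 for GRN, -0.67 for CD63, -0.50 for LAMP2, -0.47 for GLB1 and -0.38 for SCARB2 on the log2 scale, lower at 5 d in both libraries. CTSZ went the other way, at 0.36, higher at 5 d in both libraries. At 16 h PSAP, CD63 and SCARB2 turned below adherent cells on library totals, and PSAP and CD63 with quantile normalization, while TPP1, GRN and CTSZ kept their direction and call under both scalings. The rise at 16 h was not called for LAMP2 with quantile normalization (0.10) or on library totals (0.06), nor for GLB1 on library totals (0.01). For SCARB2 the fall at 5 d was not called by edgeR (adjusted p = 0.065) or DESeq2 (adjusted p = 0.17).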

How the results depend on the processing

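The number of members called in the culture comparisons ran from 27 to 35 at 16 h, 23 to 31 at 5 d and 28 to 33 between them, and from 31 to 35, 28 to 30 and 29 to 31 with 1 library left out. The siRNA counts moved more. Without trend 2 were called with siSCIRT 1, 4 with siSCIRT 2, 5 for their mean and 0 with siEZH2 (5 at an unadjusted p under 0.05, 3 called by edgeR and by DESeq2). Quantile normalization called 5 with siEZH2. Leaving out 1 library gave 2 to 10 with siSCIRT 1, 2 to 9 with siSCIRT 2, 6 to 13 for their mean and 1 to 7 with siEZH2. Counts moved by over 1.5 times without siNC replicate 3 (3, 2 and 6 with siSCIRT 1, siSCIRT 2 and their mean), the second siSCIRT 1 column (2, mean 8), siNC replicate 1 (mean 8), siSCIRT 2 replicate 1 (4, mean 8), siSCIRT 2 replicate 3 (4), siEZH2 replicate 2 (7) and its siNC replicate 1 (1). For members called in a culture comparison, 1442 of 1534 values under other settings kept direction and call, 82 lost the call and 10 reversed. Reversed at 16 h were CTSD (-0.39 with quantile normalization, -0.0069 on library totals), PSAP (-0.36 and -0.0071), CD63 (-0.17 and -0.093) and SCARB2 (-0.026 on library totals). CTSD reversed with quantile normalization at 5 d (-0.075), and from 16 h to 5 d under both scalings (0.31 and 0.029). For members called in a siRNA comparison, 466 of 584 values kept their call, 118 lost it and 0 reversed. The cause was not tested.

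Same-numbered samples did not pair in the culture and siEZH2 tables, where correlations of their deviations were -0.01 to 0.02 and -0.09. In the siSCIRT table the pairs of siNC and siSCIRT 2 gave 0.21, 0.12 and 0.06, each highest with its own number. The main fit holds no term for such a shared replicate effect. With the replicate block 34, 31 and 32 members were called in the culture comparisons, 2 with siEZH2 (3.36% of all genes) and, in a fit of siNC and siSCIRT 2 alone, 14 with siSCIRT 2 (16% of all genes). With the last digit of each column name taken as the replicate, though the sources do not say what that digit means for siSCIRT 1, the block called 19 members with siSCIRT 1 (18.9% of all genes), 17 with siSCIRT 2 (18.7%) and 21 for their mean (24.3%). Same-digit correlations between siNC and siSCIRT 1 were 0.30, 0.06 and 0.02, while siNC replicate 2 reached 0.19 with digit 3 of siSCIRT 1. Between siSCIRT 1 and siSCIRT 2 they were 0.23, 0.07 and 0.10.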

Other observations

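From 16 h to 5 d, of 18 other pump subunits 9 fell and 2 rose, of 26 other hydrolases and cofactors 11 fell and 4 rose, of 22 other membrane proteins 8 fell and 2 rose, of 17 sorting genes 6 fell and 2 rose, and of 19 genes of TFEB control and nutrient sensing 10 fell and 3 rose. Of all genes 25.5% were lower and 22.8% higher, a split that on library totals was 2136 genes lower and 5142 higher. Among 6 cathepsin inhibitors 3 rose, CST2 (0.64 ± 0.12), CSTB (0.30 ± 0.04) and CST4 (0.20 ± 0.05), and 1 fell, CST3 (-1.22 ± 0.03). CTSL fell by 0.93 ± 0.04. MITF, low at 16 h, was higher again at 5 d (1.26 ± 0.13).

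In the siRNA tables further genes stood out, all chosen after their values were seen. With siSCIRT 1 and siSCIRT 2, LAMTOR3, a scaffold of mTORC1 on the lysosome, was at 0.53 ± 0.11 and 0.41 ± 0.11. FLCN, which with its partner FNIP2 regulates Rag GTPases, was at 0.28 ± 0.07 and 0.26 ± 0.07, and FNIP2 at -0.38 ± 0.07 and -0.32 ± 0.07. MANBA, the beta-mannosidase, was at 0.38 ± 0.09 and 0.41 ± 0.09. All were called with both siRNAs by limma. With siEZH2, OSTM1, the partner of CLCN7, fell by 0.61 ± 0.13, and GNPTAB, which builds the mannose 6-phosphate tag, fell by 0.57 ± 0.13.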
